A study of Mus musculus with 6 samples.

Results

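Genes that write, erase and read histone acetylation were examined for the H3K27ac that they themselves carried in pigmented and less pigmented B16 cells. They were 9 of the 21992 protein-coding genes of the annotation: the acetyltransferases Ep300, Crebbp, Kat2a and Kat2b, the deacetylases Hdac1, Hdac2 and Hdac3, the acetyl-lysine reader Brd2, and Acly, which makes acetyl-CoA. Each gene was taken with 3 kb on either side, and every H3K27ac peak in these windows was counted, 76 of the 182956 regions that the peak lists of the 4 libraries formed once overlapping peaks were joined. B16 F10 is a mouse melanoma line. In the progressive pigmentation model its cells were seeded sparsely, at 100 cells per cm2, and were taken on day 5, when flow cytometry separated low pigment (LP) from high pigment (HP) cells by side scatter alone. Both groups are therefore fractions of one established line, and the labels name no genetic change or drug. H3K27ac ChIP-seq had 2 replicates of LP and 2 of HP, and 2 IgG libraries of unsorted cells, 1 for each replicate number, served only as the authors' background for peak calling. The labels do not state whether the replicates were separate cultures, so the p-values measure the spread between these libraries only.

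Acetylation of lysine 27 on histone H3 marks active promoters and enhancers. It is laid down mainly by the paralogous enzymes p300 (Ep300) and CBP (Crebbp), while Kat2a and Kat2b, the catalytic subunits of SAGA-type complexes, chiefly acetylate lysine 9. Class I deacetylases remove the mark within corepressor complexes, Hdac1 and Hdac2 in Sin3, NuRD and CoREST and Hdac3 in NCoR/SMRT, and bromodomain proteins such as Brd2 bind acetylated histones at active genes. ATP-citrate lyase (Acly) splits citrate into the acetyl-CoA that the acetyltransferases use. ChIP-seq reports the mark on these genes and does not measure their RNA, their protein or their enzyme activity.

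All 9 promoters carried H3K27ac in all 4 libraries, against 43.9% of all protein-coding genes. A main promoter region was the joined region within 1 kb of a protein-coding transcript start with the highest mean signal. Its signal was the scaled pileup, the fragments lying over the summit for every 1000000 fragments of the library, which is a height at 1 position and does not grow with gene length. All 9 had a higher mean log2 scaled pileup in HP than in LP, with log2 ratios of 0.28 (Crebbp) to 1.27 (Hdac3) and a median of 0.82, and for 7 of them the sign turned when each library was centred on its median. Over the 12084 regions called in all 4 libraries 99.0% also had a log2 ratio above 0, with a median of 0.92. The same centring brought their median to -0.09, below 0 as well. None of the 9 passed limma's test at an adjusted p of 0.05, where 4.01% of all regions did, and 2 of the 9, Kat2a and Hdac3, had an unadjusted p under 0.05, against 36.2% of all regions. Without HP replicate 1, 5 of the 9 passed (Kat2a, Hdac2, Hdac3, Brd2 and Acly), as did 6930 regions over all, and without any one of the other libraries 0 of the 9 and 0 over all passed. The HP libraries lay above both LP libraries for 5 of the 9 (55.6%), Kat2a, Kat2b, Hdac1, Hdac3 and Acly, against 74.8% of all regions. Main promoter regions of all protein-coding genes are the closer background, and 8510 of them were called in all 4 libraries. Of these, 213 passed limma's adjusted threshold and 2655 had an unadjusted limma p under 0.05. Both HP libraries lay above both LP libraries in 6277, and the median log2 ratio was 0.88.

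The libraries held between 11467942 and 15353176 fragments. They differed within as well as between groups, since the median scaled pileup over the regions called in all 4 came to 2.44 and 2.61 for LP but 3.92 and 6.59 for HP replicates 1 and 2. Between the groups the median log2 ratio was accordingly 0.57 in replicate 1 and 1.30 in replicate 2. Within HP the median difference between the replicates was 0.67, and HP replicate 2 was the highest library in 86.4% of all regions. Limma estimated a single variance for all regions, which gave each log2 ratio the same standard error of 0.54. Its intervals and p-values thus rest on 24168 degrees of freedom pooled over regions, far more than 4 libraries hold. They treat the regions as independent although whole libraries shifted together. All intervals therefore have the same width, however far apart the replicates of a region lay. They can be narrower than 2 replicates a group alone would give where replicates disagreed, and wider where replicates were close. Of 10 melanocyte marker genes 8 had a promoter peak in all 4 libraries (Slc45a2 had one in 3 and Ednrb in 1), and none of 10 markers of leukocytes, macrophages, epithelium, endothelium and fibroblasts did. A peak was found in 3 libraries at Pdgfrb and in 1 library each at Csf1r, Epcam, Pecam1 and Col1a1.

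The promoters differed in base composition. The bases just upstream of the start are shown for 4 genes, Kat2a and Kat2b as those of lowest GC content among the 7 with a sequence here, and Hdac2 and Acly as examples of GC-rich ones. The sequences are RefSeq's on GRCm38.p6, 250 bases upstream of the start in RefSeq, read 5′ to 3′ on the strand of the gene. Capitals mark matches to the motifs that were searched. All other distances here are from GENCODE starts, and that of Kat2b (53566861) lies inside its printed bases.
Kat2a, chr11:100712468-100712717, - strand: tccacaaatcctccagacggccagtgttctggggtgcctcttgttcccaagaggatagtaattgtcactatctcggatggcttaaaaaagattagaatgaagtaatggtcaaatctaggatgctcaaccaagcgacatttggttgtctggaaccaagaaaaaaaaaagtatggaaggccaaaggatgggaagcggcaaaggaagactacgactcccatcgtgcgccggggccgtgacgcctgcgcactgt
Kat2b, chr17:53566721-53566970, + strand: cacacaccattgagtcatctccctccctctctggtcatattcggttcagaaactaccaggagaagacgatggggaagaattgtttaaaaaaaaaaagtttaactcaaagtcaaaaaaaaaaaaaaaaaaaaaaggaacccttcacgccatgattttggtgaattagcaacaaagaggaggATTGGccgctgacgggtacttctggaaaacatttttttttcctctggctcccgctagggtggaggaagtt
Hdac2, chr10:36974294-36974543, + strand: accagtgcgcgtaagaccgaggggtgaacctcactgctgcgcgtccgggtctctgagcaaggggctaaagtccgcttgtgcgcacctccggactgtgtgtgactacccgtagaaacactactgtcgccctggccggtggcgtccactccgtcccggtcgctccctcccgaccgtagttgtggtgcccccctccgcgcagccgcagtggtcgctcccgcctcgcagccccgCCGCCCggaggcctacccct
Acly, chr11:100528001-100528250, - strand: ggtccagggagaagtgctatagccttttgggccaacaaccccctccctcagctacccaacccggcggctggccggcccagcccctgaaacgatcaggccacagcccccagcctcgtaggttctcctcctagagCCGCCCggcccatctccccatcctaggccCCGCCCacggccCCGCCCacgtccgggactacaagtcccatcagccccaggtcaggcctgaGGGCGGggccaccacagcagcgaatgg
These 250 bases were 48.8% G or C with 11 CpG in Kat2a, 40.8% with 6 CpG in Kat2b, 68.8% with 27 CpG in Hdac2 and 68.8% with 14 CpG in Acly.

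The full RefSeq windows ran from 250 bases before to 50 after a RefSeq start. Of these, 10 windows of 7 of the 9 genes were searched and compared with 32851 windows of the genome. Those of Ep300 (81585964 to 81586263) and Crebbp (4213355 to 4213654) lie wholly downstream of the GENCODE gene starts, at 81585351 and 4213997. The window of Crebbp had 82.0% G or C and 49 CpG, that of Ep300 72.3% G or C, Kat2a 54.3% and Kat2b 47.0%, where the median of all windows was 52.7% with 7 CpG. The GC box GGGCGG, on either strand, was in 6 of the 10 windows, belonging to Acly, Brd2, Crebbp, Ep300 and Hdac2, and in 35.7% of all windows. CCAAT was in 2, those of Acly and Kat2b, and in 37.4% of all windows. The ETS motif CCGGAAG and the NRF1 core GCGCATG were each found in 1 window, of Brd2, and in 8.86% and 3.91% of all windows. No member window held the E-box core CACGTG (7.15% of all windows), the MITF E-box TCACGTG that contains it (3.77%), the CRE TGACGTCA (1.79%) or the LEF1 motif CTTTGAT (3.73%). These are matches of letters in short windows and say nothing of binding.

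Ep300 and Crebbp had the strongest promoters among the writers, and in them the replicates disagreed in direction. At Ep300 (chromosome 15, 81584619 to 81587290 in mm10) LP replicates 1 and 2 had scaled pileups of 27.8 and 10.6 and the HP replicates 20.7 and 32.3. HP was thus below LP in replicate 1 and above it in replicate 2, with log2 ratios of -0.42 and 1.61, and the groups overlapped. The joint log2 ratio was 0.59 (95% interval -0.47 to 1.66, limma adjusted p = 0.339). At Crebbp (chromosome 16, 4212690 to 4214766) LP had 20.4 and 9.70 where HP had 15.4 and 19.0, again lower in HP in replicate 1 (-0.40) and higher in replicate 2 (0.97). Its joint log2 ratio of 0.28 (-0.78 to 1.35, adjusted p = 0.629) was the lowest of the 9. Both ranked high among all promoter regions of their library, Ep300 between the 99.1 and 99.8 percentile and Crebbp between 95.3 and 98.8. At both genes the LP replicates lay further apart than the HP replicates, by 1.40 and 1.07 against 0.64 and 0.30 on the log2 scale for Ep300 and Crebbp.

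The GCN5 and PCAF genes, Kat2a and Kat2b, had weaker promoters with no overlap between the groups. At Kat2a (chromosome 11, 100711715 to 100714925) LP showed 2.18 and 3.26 and HP 5.49 and 6.10. The log2 ratio was 1.12 (95% interval 0.05 to 2.18, adjusted p = 0.126), with 1.33 and 0.91 in replicates 1 and 2. This region also covers the start of Hspb9, a small heat shock protein gene, but the summit that gave the value lay 133 to 264 bp inside Kat2a in every library. At Kat2b (chromosome 17, 53566720 to 53568724) LP showed 4.88 and 3.58 and HP 7.49 and 8.63, which gave 0.94 on the log2 scale (-0.12 to 2.01, adjusted p = 0.172), with 0.62 and 1.27 in the replicates. Both HP libraries exceeded both LP libraries in these genes, as they did in 74.8% of all regions called in all 4 libraries. Neither gene passed the adjusted threshold.

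Of the erasers, Hdac2 had the strongest promoter and Hdac3 the weakest of all 9. Hdac2 (chromosome 10, 36973951 to 36975463) read 7.67 and 4.75 in the LP libraries, then 7.31 and 15.6 in those of HP. HP replicate 1 lay between the LP libraries, so the log2 ratio of 0.82 (95% interval -0.24 to 1.89, adjusted p = 0.216) rested on HP replicate 2, with -0.07 in replicate 1, 1.71 in replicate 2 and 0.28 jointly without HP replicate 2. Hdac1, the close paralog of Hdac2, gave 2.79 and 2.41 for LP and 4.79 and 5.61 for HP (chromosome 4, 129541864 to 129543285). The groups did not overlap, and its log2 ratio was 1.00 (-0.06 to 2.06, adjusted p = 0.154), with 0.78 and 1.22 in the replicates. Hdac3 (chromosome 18, 37954126 to 37955907) went from 0.872 and 1.37 for LP to 2.09 and 3.30 for HP. Its log2 ratio of 1.27 (0.20 to 2.33, adjusted p = 0.100) was the highest of the 9 promoters, with 1.26 and 1.27 in replicates 1 and 2. These ratios do not compare the same position, since the summits lay at 283 and -629 bp from the Hdac3 start in LP replicates 1 and 2 and at -661 and 103 bp in those of HP. The pileups behind it were only 10 and 21 fragments for LP and 24 and 47 for HP, and the region is shared with the start of Rell2.

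The reader Brd2 had the widest promoter region and the largest disagreement between replicates. Its region (chromosome 17, 34118017 to 34123277) spanned 5261 bp, covered several Brd2 transcript starts and also lay at the start of H2-DMa, an antigen-processing gene. LP replicates 1 and 2 had scaled pileups of 13.9 and 6.12 and the HP replicates 8.19 and 23.1, so HP was lower in replicate 1 (-0.76) and higher in replicate 2 (1.91). The joint log2 ratio was 0.58 (95% interval -0.49 to 1.64, adjusted p = 0.350). The summits lay 140 and 1624 bp into Brd2 in LP replicates 1 and 2 and 414 and 439 bp in HP. Neither replicate's ratio thus compares the same position, and the summits of replicate 2 lay furthest apart. At Acly (chromosome 11, 100526923 to 100528584) LP showed 2.53 and 2.74 and HP 3.13 and 6.80. All HP values were higher, though HP replicate 1 by little, and the log2 ratio was 0.81 (-0.25 to 1.88, adjusted p = 0.220), with 0.31 and 1.31 in the replicates and 0.25 without HP replicate 2.

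**Figure D1:**
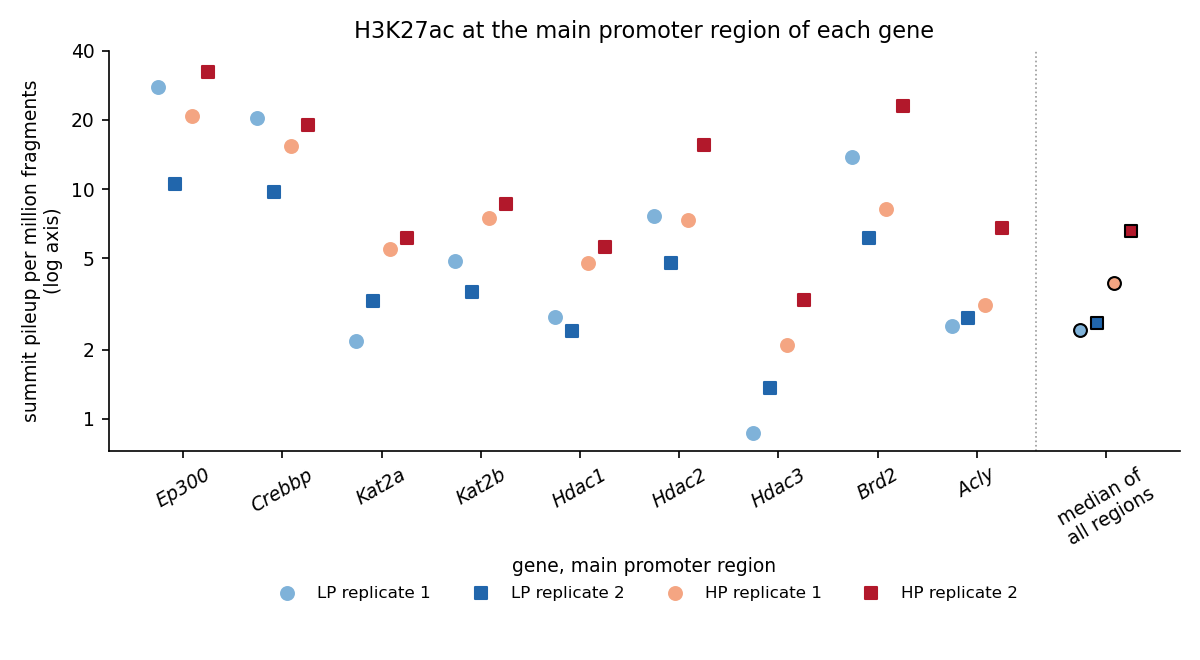
Summit pileup per 1000000 fragments (log axis) at the main promoter region of each gene in LP replicates 1 and 2 and HP replicates 1 and 2, 1 point per library, with the median over the 12084 regions called in all 4 libraries at the right. HP replicate 2 is highest in 8 of the 9 genes, while LP replicate 1 lies above HP replicate 1 at Ep300, Crebbp, Hdac2 and Brd2.

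The order of the promoters by signal was nearly kept across libraries, with Ep300 at the top and Hdac3 at the bottom of the 9 in each. Brd2 ranged from the 80.9 to the 98.1 percentile of promoter regions, Hdac2 from 75.6 to 90.2, Kat2b from 61.7 to 76.6, Kat2a from 32.8 to 61.7, Hdac1 from 40.7 to 55.0, Acly from 34.7 to 49.8 and Hdac3 from 6.24 to 22.6. Neighbours in the middle of this order, Kat2a, Hdac1 and Acly, overlapped in their ranges. Genes whose replicates disagreed were those with the highest signal: Ep300, Crebbp and Brd2 were in the top decile of all regions by mean log2 signal and Hdac2 in the next. Regions of the top decile had a median log2 ratio of -0.0020 in replicate 1 and 1.27 in replicate 2, and 48.6% of them had both HP above both LP, while in decile 5, which holds Acly, these were 0.73, 1.37 and 80.9%. For decile 2 from the bottom, which holds Hdac3, the same values were 0.85, 1.30 and 77.8%. In the top decile LP replicate 2 was lower than LP replicate 1 by a median difference of -0.70. Over all regions the log2 ratio was below 0 in replicate 1 in 17.8% and above 0 in replicate 2 in 98.6%, and among the 9 promoters it was below 0 in replicate 1 in 4 and above 0 in replicate 2 in 9.

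**Figure D2:**
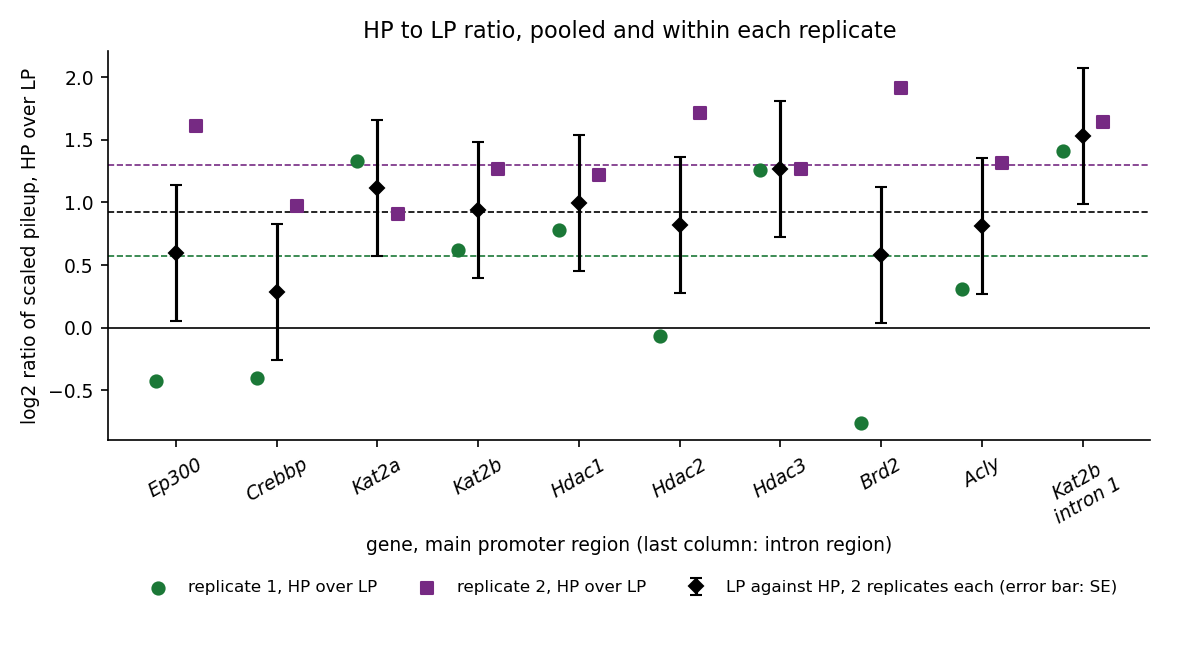
Log2 ratio of scaled pileup, HP over LP, for the 9 main promoter regions and the Kat2b intron region, within replicate 1 (circles), within replicate 2 (squares) and over both (diamonds, with the standard error of 0.54). Dashed lines are the medians over all regions, 0.57 in replicate 1, 0.92 jointly and 1.30 in replicate 2. Replicate 1 lies below 0 at Ep300, Crebbp, Hdac2 and Brd2, and the Kat2b intron region lies above all 3 medians in its own measure.

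Relative to the shift shared by most regions the members lay on both sides. When each library was centred on its median log2 pileup, 7 of the 9 promoters had a ratio below 0, from -0.73 at Crebbp to -0.01 at Hdac1, and Kat2a (0.11) and Hdac3 (0.25) stayed above 0. The direction given above for those 7 thus holds per 1000000 fragments and turns with this scaling. The median centred ratio of the 9 was -0.19, beside -0.09 over all regions and -0.13 over the main promoters of all protein-coding genes. Kat2b (-0.07) and Hdac1, though below 0, lay above this median of all regions.

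The width of the called domains differed between libraries as well. The bases called at the main promoter of Kat2a numbered 526 and 1188 for LP and 2021 and 3165 for HP, and those of Ep300 1515 and 2050 for LP and 2391 and 2629 for HP. For Kat2a these add separate peaks of a region that also holds the start of Hspb9. The peak at the Kat2a start ran from -54 to 271 and -1 to 729 bp in LP replicates 1 and 2. In HP replicate 1 it ran from -39 to 384 bp, less than in LP replicate 2. HP replicate 2 had 1 peak from -2460 to 704 bp. In 6 of the 9 genes both HP libraries covered more bases than both LP libraries, against 57.3% of the 8510 main promoter regions of all genes called in all 4 libraries. The exceptions were Hdac1 (335 and 800 bp for LP, 793 and 1010 bp for HP), Hdac2 (1111 and 1513 against 1395 and 1457 bp) and Hdac3 (252 and 1384 against 1141 and 1782 bp), in each of which an HP library covered fewer bases than LP replicate 2. LP replicate 1, the library with the fewest fragments and peaks, had the narrowest promoter in 8 of the 9 (75.7% of all main promoter regions) and HP replicate 2 the widest in 8 (75.6%). Width at a fixed threshold moves with depth and with fragment length, which was 167 and 217 bp for LP and 184 and 192 bp for HP, and the part of these in the widths was not tested. Of the 36 summits 32 lay between 0 and 600 bp downstream of the gene start. They spread over 16 bp at Crebbp and 50 bp at Ep300, over 131 to 279 bp at Kat2a, Kat2b, Hdac1, Hdac2 and Acly, and over 944 bp at Hdac3 and 1484 bp at Brd2. The other 4 summits were at -143 bp in HP replicate 2 at Hdac2, at -629 and -661 bp in LP replicate 2 and HP replicate 1 at Hdac3, on the side of Rell2, and at 1624 bp in LP replicate 2 at Brd2.

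**Figure D3:**
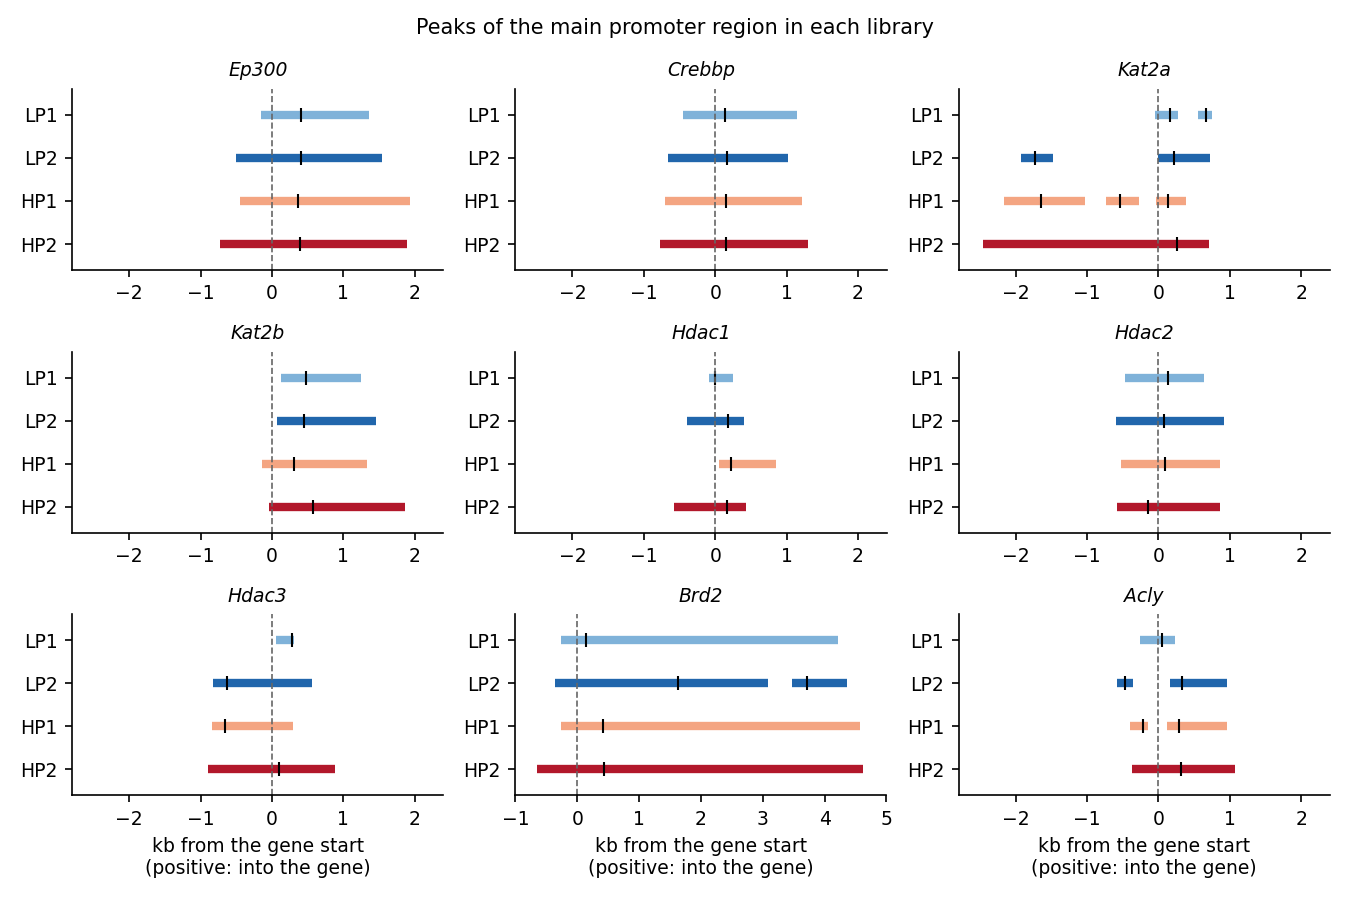
Peaks of the main promoter region of each gene in each library, as distance in kb from the gene start along the strand of the gene, with black ticks at the summits (Brd2 has a longer axis). At Kat2a separate short peaks in LP and HP replicate 1 are joined in HP replicate 2 into 1 peak of 3165 bp, and at Crebbp the summits of all 4 libraries fall within 16 bp.

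Outside the main promoters the signal was sparse, apart from 4 regions at the starts of neighbouring genes and 1 weaker intronic region of Kat2b. Of the 76 regions 14 were promoter regions and 62 gene body regions. A single library called 55 of the 76 (72.4%, against 81.7% of all regions), with a median pileup of 8 fragments and a range of 5 to 23. Of these, 13 and 9 came from LP replicates 1 and 2 and 13 and 20 from HP. The lists hold called peaks alone, and at such a region the signal of the other 3 libraries is known only to lie under their threshold. All 4 libraries called 5 gene body regions, of which 4 lay at the start of a neighbouring gene, Trap1 near Crebbp, Marcksl1 near Hdac1, Diaph1 near Hdac3 and Klhl11 near Acly. The log2 ratios of these 4 were 0.74, 1.17, 1.25 and 0.97 (adjusted p = 0.251, 0.116, 0.103 and 0.162 by limma).

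The fifth was in intron 1 of Kat2b (chr17:53586155-53588468), with summits 20695 to 20758 bp from the gene start. It reached 1.05 and 0.651 per 1000000 fragments for LP and 2.79 and 2.03 for HP, from 12, 10, 32 and 29 fragments. The LP pileups lay within the range of 5 to 23 fragments of the single-library regions. By mean log2 signal the region was in decile 2 from the bottom, where the median log2 ratio was 1.08. Both HP libraries lay above both LP libraries, as in 77.8% of the regions of that decile. The replicates were alike, with log2 ratios of 1.41 and 1.64. The joint log2 ratio was 1.53 (95% interval 0.46 to 2.59), the largest of the 14 member regions called in all 4 libraries, and it did not pass the adjusted threshold (limma, adjusted p = 0.0635). It remained above 0 when libraries were centred, at 0.52. Exact Poisson intervals of the pileup, which cover counting error only, were 6.20 to 21.0 and 4.80 to 18.4 fragments for LP and 21.9 to 45.2 and 19.4 to 41.6 for HP. A further Kat2b region at an internal transcript start (53583644 to 53584953) was called in LP replicate 2 and both HP libraries, with scaled pileups of 0.586, 0.784 and 1.75.

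In bases covered both HP libraries exceeded both LP libraries in 5 of the 9 windows, Ep300, Kat2a, Kat2b, Brd2 and Acly, against 38.4% of the 18074 protein-coding genes with a peak in their window. At Kat2b peaks covered 2569 and 3768 bp of its window for LP and 6724 and 7112 bp for HP, and outside promoter regions 1445 and 1677 bp against 4214 and 3892 bp. Kat2b had 7 peaks in each LP library and 11 and 12 in HP. The Crebbp window, the longest, had 6 and 4 peaks for LP and 6 and 7 for HP, covering 2819 and 3330 bp and 2978 and 3746 bp, so HP replicate 1 covered less than LP replicate 2. Over all 9 windows the peaks numbered 27, 30, 35 and 41 in LP replicates 1 and 2 and HP replicates 1 and 2, and covered 15943, 23815, 26754 and 35594 bp, a ratio of the HP to the LP mean of 1.57 (1.68 and 1.49 in replicates 1 and 2). Covered bases over the whole lists were 18896589 and 30271314 for LP and 31854067 and 43930217 for HP, so the total increased in the same order of libraries.

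**Figure D4:**
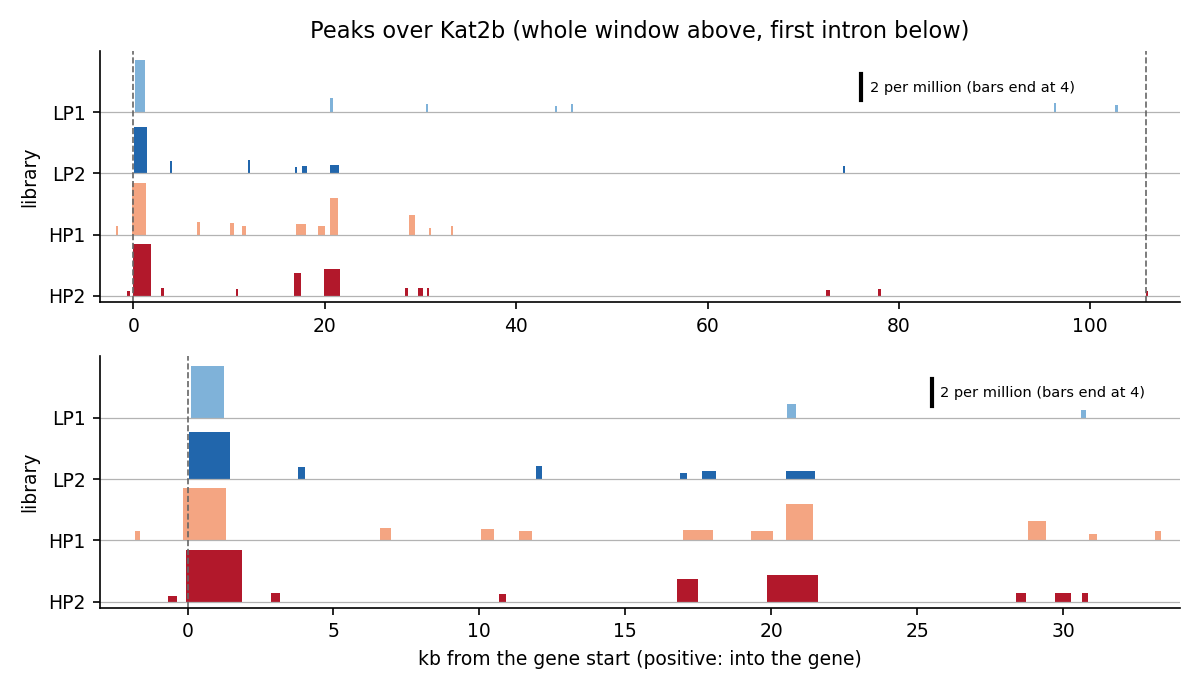
Peaks over the Kat2b window in each library by distance in kb from the gene start (dashed lines at the start and, in the upper panel, the end), with bar height the summit pileup per 1000000 fragments drawn to at most 4. The promoter peak is present in every library, and the peak near 21 kb reaches 2.79 and 2.03 for HP but 1.05 and 0.651 for LP.

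Regions called in both HP libraries and in neither LP library numbered 3 of 76 (3.95%), close to the 3.94% of all regions, and none was called in both LP and neither HP, against 0.249% of all regions. They lay in 3 of the 9 genes, where 19.4% of all protein-coding genes with any region had such a region in their window. One was in intron 11 of Crebbp (chr16:4122109-4122460, 6 and 12 fragments at the summit in HP replicates 1 and 2), another in intron 27 of Acly (chr11:100477902-100478442, 12 and 20 fragments), and the last at an internal start of Brd2 (chr17:34116861-34117490, 9 and 12 fragments). These heights are within the range of the regions that a single library called, which reached 23 fragments. The reference bases are shown for the Kat2b intron region, as the member region of the largest ratio, and for both intronic regions without an LP peak, to show where they lie. Each is 201 bases of GRCm38.p6 centred on the higher of the HP summits, that of replicate 1 at Kat2b and of replicate 2 at Crebbp and Acly, where the summit of replicate 1 lies outside the window. Capitals mark motif matches.
Kat2b intron 1, chr17:53587503-53587703, + strand: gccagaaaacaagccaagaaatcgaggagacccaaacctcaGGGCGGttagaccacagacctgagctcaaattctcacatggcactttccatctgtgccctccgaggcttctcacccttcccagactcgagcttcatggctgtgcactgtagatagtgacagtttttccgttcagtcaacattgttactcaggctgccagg
Crebbp intron 11, chr16:4122213-4122413, + strand: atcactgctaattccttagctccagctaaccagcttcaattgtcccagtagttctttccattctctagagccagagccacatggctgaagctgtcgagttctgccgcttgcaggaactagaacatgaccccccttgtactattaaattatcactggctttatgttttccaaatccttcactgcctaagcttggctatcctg
Acly intron 27, chr11:100478175-100478375, + strand: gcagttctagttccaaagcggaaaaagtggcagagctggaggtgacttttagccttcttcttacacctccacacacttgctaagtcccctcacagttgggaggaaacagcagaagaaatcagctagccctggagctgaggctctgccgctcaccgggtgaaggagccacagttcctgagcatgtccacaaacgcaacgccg
Of the motifs searched a GC box was found in the Kat2b window and no match in the other two, while 13.2% of 71488 windows of this length around the summits of the HP replicate 2 list held a GC box.

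The other genes of the acetylation machinery had promoter ratios from 0.26 to 1.57 per 1000000 fragments. With centred libraries 59 of 82 fell below 0 (median -0.19). The median centred ratio was also below 0 over all regions (-0.09) and over the main promoters of all protein-coding genes (-0.13). Of 91 such genes 88 had a promoter region and 82 had one in all 4 libraries. None of the 82 passed the adjusted threshold in either direction, 18 (22.0%) had an unadjusted limma p under 0.05, all higher in HP, against 36.2% of all regions, and 60 (73.2%) had both HP above both LP, against 74.8%. Among the 8510 main promoters of all protein-coding genes called in all 4 libraries, 2655 had such a p and 6277 had both HP above both LP. The median log2 ratio of the 82 was 0.82, beside 0.92 over all regions and 0.88 over the main promoters of all protein-coding genes. Among 11 other writers Kat8, the catalytic subunit of MSL and NSL complexes, had the highest ratio (1.29) and Kat6b the lowest (0.26). Among 11 subunits of the Kat2 complexes these were Tada3 (1.34) and Taf5l (0.33). The 10 other erasers ran from Sirt7 (0.45) to Sirt3, the mitochondrial deacetylase, which had the highest ratio of all 82 (1.57, adjusted p = 0.0583). LP showed 2.53 and 1.63 at Sirt3 and HP 4.09 and 8.91. The 20 corepressor subunits ran from Mbd2 (0.27) to Chd4 (1.18), the 22 other readers from Baz2b (0.32) to Dpf2 (1.20), and the 8 other acetyl-CoA genes from Slc25a1, the citrate carrier (0.78), to Acaca, acetyl-CoA carboxylase (1.28). A promoter region in all 4 libraries was not found for Taf1, Taf6l, Hdac6, Hdac8, Hdac9, Cecr2, Smarca2, Acss1 and Acot12.

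Over the 9 promoters the median scaled pileup per library was 4.88 and 3.58 for LP and 7.31 and 8.63 for HP. Of 9546 genes with a main promoter region in all 4 libraries that were on none of the lists and shared no region with a listed gene, those nearest to it by Euclidean distance over the 4 log2 values were Bard1 (0.0709), Chka (0.0758) and Tnpo2 (0.116).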

How the data were processed

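H3K27ac ChIP-seq of LP and HP B16 F10 cells (2 replicates each) was grouped by the labels. The labels give 1% formaldehyde for fixation and the study's methods another strength. The authors trimmed paired-end reads (bcl2fastq 2.20, Trimmomatic 0.33, fastp), aligned them to mm10 with Bowtie2 2.5.1 and called narrow peaks library by library in MACS 3.0.0b1, duplicates included and q-values up to 0.05, with the IgG library that carries the same number as control (8701778 and 19358733 fragments). The pileup signal deposited by the authors is the number of fragments over the summit, not scaled for depth. The fold enrichment ratio and the −log10 q-value in the authors' lists were used only to filter or rank peaks. No deposited column of measurements was left unassigned (0).

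Peaks sharing at least 1 bp were joined into regions, whose value was the highest summit pileup per 1000000 fragments. Genes and starts came from GENCODE vM21 for GRCm38. Limma 3.58.1 in R 4.3.3 compared log2 values over regions called in all 4 libraries without a replicate block, with Benjamini-Hochberg adjustment over all of them and a threshold of 0.05. The authors compared groups on read counts, but reads were not used here. Counts carry no test, since with 2 libraries a group the smallest two-sided p of an exact permutation test is 0.333. Each replicate set shared an IgG library and started from equal amounts of DNA per the labels. The deviations of same-numbered libraries correlated at 0.0153 over 12084 regions.

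The members, gene lists and tests were chosen with earlier results of these data known. All 9 members are named. Of other lists the rule named genes past the adjusted threshold and the highest and lowest ratios, with the 3 genes of nearest pattern. Genes without a promoter region in all 4 libraries and markers with few peaks are named outside this rule, after their values were seen. Joining and the limma step were tested on simulated data. Alternatives were the replicate block, centring, quantile normalization, mean summit pileups, q-value limits of 0.01 and 0.001, equal numbers of peaks per list, windows of 3 kb at starts, no flank or 10 kb around genes, an overlap of 100 bp, and leaving out libraries. Tables and figures were made with pandas 2.3.3, scipy 1.17.1, numpy 2.4.6 and matplotlib 3.10.9 in Python 3.11.15.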

Additional observations from a re-analysis of the deposited data

How the results depend on the processing

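The log2 ratios of the promoters depend on how libraries are scaled. With each library centred on its median the ratio was -0.42 at Ep300, -0.73 at Crebbp, -0.069 at Kat2b, -0.012 at Hdac1, -0.19 at Hdac2, -0.43 at Brd2 and -0.20 at Acly. After quantile normalization it was -0.29 at Crebbp, -0.0056 at Hdac1, -0.068 at Brd2 and -0.20 at Acly, and above 0 at the other 5. Over the libraries left out in turn it ranged from -0.11 to 1.29 at Ep300, from -0.25 to 0.82 at Crebbp, from -0.17 to 1.32 at Brd2, from 0.25 to 1.37 at Acly and from 0.28 to 1.37 at Hdac2. Ep300 and Crebbp were below 0 without LP replicate 2, and Brd2 without LP replicate 2 (-0.01) and without HP replicate 2. The ratios of the Kat2b intron region and of the Kat2a and Hdac3 promoters stayed above 0 under all alternatives run. They were lowest at 0.52 for the Kat2b intron with centring, and at 0.08 for Kat2a and 0.21 for Hdac3 with quantile normalization.

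The number of calls depends on each library. Over all regions it was 485 with all 4, 6930 without HP replicate 1, whose lone partner is assumed to vary like LP, and 0 without LP replicate 1, LP replicate 2 or HP replicate 2. Without HP replicate 1, 5 of the 9 promoters passed (Kat2a 1.20, Hdac2 1.37, Hdac3 1.59, Brd2 1.32 and Acly 1.37), as did 4 of the 5 gene body regions, Kat2b intron 1 among them (1.30), and 33 of the 82 other promoters, each from 0 to 5, 0 to 4 and 0 to 33 over the libraries left out. Over all regions 332 and 33 passed at q-values of at most 0.01 and 0.001, and 0 after centring, quantile normalization or mean summit pileups.

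With the replicate block no member and none of the 82 other genes passed (0), and 88 regions did, against 485 without it. The numbers share an IgG library and the amount of DNA, and with 2 pairs the correlation is given above only as a description. Single lists are no substitute for replicates: comparing replicate 2 alone gave 24 regions in HP and not in LP (9 the other way), and replicate 1 alone 18 (14 the other way), against 3. The cause of these changes was not tested. With 2 replicates and pileups of 5 to 23 fragments in single-library regions, small differences were not detectable.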
